A study of Mus musculus with 16 samples.

Results

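The 10 genes described here are members of the Bcl2 family, which sets whether a cell survives or dies by the mitochondrial route of apoptosis. They were given by name: the anti-apoptotic members Bcl2, Bcl2l1 and Mcl1, the effectors Bax and Bak1, and the BH3-only members Bcl2l11, Bbc3, Bid, Bad and Bmf. All 10 were found among the 46078 genes of the count table. Their RNA was measured by Smart-seq2 RNA-Seq in HSCs of untreated C57/Bl6 mice, sorted as viable lineage-negative Sca1+ cKIT+ CD48- CD150+ cells in pools of 30. The bone fraction of tibia, femur and humeri gave the endosteal HSCs and the marrow fraction the central HSCs, from Gfra2 WT mice and from Gfra2 KO mice, called Gfra2-/- below, in which the gene of the neurturin receptor GFRα2 is deleted in the whole animal and not in HSCs alone. The groups held 4 WT endosteal, 4 WT central, 4 Gfra2-/- endosteal and 3 Gfra2-/- central libraries, and the age of the mice is not given in the sources used here. Letters from A to D name the libraries within a group, by their order in the count table. Nothing in the table ties a column to a mouse, so p-values measure the spread between these libraries.

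Reads counted on genes numbered 4416648 to 14003634 in WT endosteal, 826487 to 3367289 in WT central, 8519094 to 18550008 in Gfra2-/- endosteal and 7649803 to 14716308 in Gfra2-/- central libraries, so that every WT central library was shallower than every other library. Gfra2 itself had 0 to 1 counts in WT endosteal and 0 to 4 in WT central libraries, 2, 47, 1 and 9 in Gfra2-/- endosteal libraries A to D, and 0 to 1 in Gfra2-/- central libraries. In libraries B and D these counts go against the label, and counts per gene do not say whether the reads lie in the deleted part, so the text speaks of libraries labelled Gfra2-/-. All 10 HSC markers were detected in every library, among them Hoxb5 at 0.731 to 29.3 CPM and Kit at 490.7 to 993 CPM, where CPM are counts scaled to a common library size with TMM totals. Of the 4 progenitor markers taken as outside the gate, Cd48 lay between 0 and 17.4 CPM and Flt3 between 0 and 79.0 CPM. Il7r lay between 0 and 55.1 CPM, whereas Cd34 was detected in all 15 libraries, at 210 to 714 CPM. The 6 B cell markers together reached 19.0 to 98.9 CPM in WT endosteal, 9.64 to 420.3 CPM in WT central, 34.0 to 1954 CPM in Gfra2-/- endosteal and 44.1 to 326 CPM in Gfra2-/- central libraries, with Ms4a1 at 0 in every WT endosteal library. The 7 erythroid markers reached 16.2 to 109 CPM, 11.8 to 69.7 CPM, 13.5 to 672 CPM and 26.1 to 64.0 CPM in the same order, with Klf1 at 0 in WT central HSCs. The 8 myeloid markers summed to 384 to 762 CPM, 325 to 2614 CPM, 379 to 563 CPM and 418 to 1364 CPM in the same order. Of these sums Lyz2 gave 312 to 2438 CPM over all libraries. S100a8 reached 864 CPM, S100a9 796 CPM and Ngp 389 CPM, and each was at 0 in some libraries. Elane was at 0 in 14 of 15 libraries, and Itgam, Ly6g and Mpo did not exceed 7.89 CPM.

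The 3 kinds of protein in this family act on one another at the outer mitochondrial membrane. Bax and Bak1 can assemble there into pores through which cytochrome c escapes, and the anti-apoptotic proteins hold them, and the BH3-only proteins that provoke them, in check. BH3-only genes are the sensors: Bbc3 (PUMA) is a target of p53, Bcl2l11 (BIM) answers to loss of cytokine signals, Bid links death receptors to mitochondria, Bad is held inactive by phosphorylation through growth factor signals, and Bmf responds to loss of attachment. Mcl1 is a short-lived protein that HSCs are known to need for their survival. In a pool of 30 cells, fewer cells with a transcript and less transcript per cell cannot be told apart.

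Per length of exon, Bax and Mcl1 were the members with the highest levels. Over the 15 libraries the median was 42.5 CPM per kb for Bax and 35.8 CPM per kb for Mcl1, followed by Bcl2l1 at 19.1, Bcl2 at 11.9, Bid at 11.5 and Bad at 10.2 CPM per kb. The levels of Bbc3, Bak1 and Bcl2l11 were close to one another at 1.51, 1.46 and 1.24 CPM per kb, and Bmf had a median of 0. Among the 15416 genes past the filter on low counts, Bax stood above 92.5% and Mcl1 above 90.8%, whereas Bak1 stood above 30.1%. Most neighbours in this order were not separated: Bax exceeded Mcl1 in 8 of 15 libraries, Bcl2 exceeded Bid in 9, and Bbc3 exceeded Bak1 in 8. The step from Bad to Bbc3 held in 14 of 15 libraries and that from Mcl1 to Bcl2l1 in 12. With the longest transcript in place of all exons, Bax, Mcl1 and Bcl2l1 kept the ranks 1 to 3 and Bad moved from rank 6 to rank 4.

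For these 2 leading members, the 250 bases before the RefSeq start site on GRCm38.p6 are shown, since no annotated exon lies in these windows: chr3:95658471-95658720 on the plus strand for Mcl1 and chr7:45466899-45467148 on the minus strand for Bax. Capitals mark matches, on either strand, to the GC box GGGCGG, the CCAAT box CCAAT, the TATA box TATAAA and the E-box CACGTG.
Mcl1: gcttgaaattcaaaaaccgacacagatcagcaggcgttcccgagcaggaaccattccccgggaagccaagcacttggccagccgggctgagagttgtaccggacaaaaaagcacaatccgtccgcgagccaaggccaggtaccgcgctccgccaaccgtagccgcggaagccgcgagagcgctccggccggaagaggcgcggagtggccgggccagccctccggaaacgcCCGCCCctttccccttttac
Bax: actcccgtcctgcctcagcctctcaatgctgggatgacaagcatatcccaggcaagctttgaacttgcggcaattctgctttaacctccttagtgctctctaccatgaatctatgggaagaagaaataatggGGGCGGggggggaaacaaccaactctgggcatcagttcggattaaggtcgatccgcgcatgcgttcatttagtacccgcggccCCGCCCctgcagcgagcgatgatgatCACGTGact
The Mcl1 window held 1 GC box and the Bax window 2 GC boxes and 1 E-box, and neither held a CCAAT or TATA box. Of 32851 RefSeq promoter windows of the same length, 32.7% held a GC box, 6.02% this E-box, 33.8% a CCAAT box and 12.4% a TATA box. A match is a description of letters and not a binding site.

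Mcl1 (ENSMUSG00000038612), on chromosome 3 of GRCm38 from 95658788 to 95663176, was the most abundant anti-apoptotic member per length in 12 of 15 libraries. It stood at 378, 162, 122 and 155 CPM in WT endosteal libraries A to D and at 73.3, 122, 451 and 243 CPM in WT central libraries. In libraries labelled Gfra2-/- it stood at 98.8, 115, 72.6 and 194 CPM in endosteal and at 49.2, 89.1 and 160.0 CPM in central HSCs. The highest values, in WT endosteal library A and WT central library C, were both in WT HSCs, yet the lowest WT value lay below 5 of the 7 values from Gfra2-/- mice, and the groups overlapped. Group means were 204 ± 117 CPM (SD, n = 4) in WT endosteal, 222 ± 168 (SD, n = 4) in WT central, 119.9 ± 52.1 (SD, n = 4) in Gfra2-/- endosteal and 99.4 ± 56.1 CPM (SD, n = 3) in Gfra2-/- central HSCs.

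Bcl2 (ENSMUSG00000057329), the founding member, on chromosome 1 from 106538178 to 106714274, had 108, 156, 175 and 109 CPM in WT endosteal libraries and 259.8, 98.6, 73.7 and 164 CPM in WT central libraries. In libraries labelled Gfra2-/- the values were 180.1, 60.9, 101 and 93.4 CPM in endosteal and 114, 123 and 44.6 CPM in central HSCs. The 4 groups overlapped, with means from 93.8 ± 42.9 CPM (SD, n = 3) in Gfra2-/- central to 149 ± 83.1 CPM (SD, n = 4) in WT central HSCs. Bcl2l1 (ENSMUSG00000007659; chromosome 2, 152780668 to 152831728), which encodes BCL-XL, ranged from 27.5 to 118 CPM in WT endosteal, from 18.5 to 129 CPM in WT central, from 70.2 to 121 CPM in Gfra2-/- endosteal and from 54.9 to 112 CPM in Gfra2-/- central HSCs. Its lowest values were in WT libraries, WT endosteal A and WT central D. Exons of Bcl2 overlap the antisense gene D630008O14Rik, which had 490 counts over all libraries against 16372 of Bcl2, and counting without regard to strand cannot separate reads there.

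Bax (chromosome 7, 45461697 to 45466898) was detected in every library, at 85.3, 40.2, 67.4 and 50.9 CPM in WT endosteal and 22.6, 69.95, 169 and 52.6 CPM in WT central libraries. Libraries labelled Gfra2-/- had 86.6, 67.0, 67.7 and 50.2 CPM in endosteal and 33.2, 46.0 and 99.7 CPM in central HSCs. The 2 endosteal groups were the tightest, both within 40.2 and 86.6 CPM, and the lowest and highest values of all were in WT central HSCs. The other effector, Bak1 (ENSMUSG00000057789; chromosome 17, 27019810 to 27029009), was much less abundant. It had 3.90, 5.33, 5.09 and 3.52 CPM in WT endosteal and 14.5, 17.7, 12.1 and 2.36 CPM in WT central libraries. Libraries labelled Gfra2-/- had 2.16, 1.11, 1.504 and 2.19 CPM in endosteal and 1.51, 1.89 and 3.72 CPM in central HSCs. All 4 endosteal values from Gfra2-/- mice lay below all 4 from WT mice, whereas the central groups overlapped through WT central library D. These levels rest on 7 to 80 counts per library, and Bak1 shares exon sequence with Ggnbp1 on the opposite strand, which had 2100 counts over all libraries against 448 of Bak1.

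Among the BH3-only members, Bid (chromosome 6, 120891930 to 120916853) was the most abundant per length in 8 libraries and Bad (chromosome 19, 6941861 to 6951899) in 6. Bid varied widely in WT HSCs, with 6.09, 57.5, 18.8 and 56.7 CPM in endosteal and 84.2, 1.24, 8.04 and 14.8 CPM in central libraries. It was more even in libraries labelled Gfra2-/-, with 92.8, 62.1, 38.1 and 71.2 CPM in endosteal and 50.8, 40.7 and 22.0 CPM in central HSCs. Bad lay between 23.2 and 37.7 CPM in WT endosteal, 5.36 and 31.7 CPM in WT central, 12.004 and 42.7 CPM in Gfra2-/- endosteal and 5.70 and 34.3 CPM in Gfra2-/- central HSCs. Exons of Bid overlap Bcl2l13 and exons of Bad overlap Gpr137, each on the opposite strand. Over all libraries Bcl2l13 had 5615 counts against 7057 of Bid, and Gpr137 2668 against 3493 of Bad. Counting without regard to strand cannot separate reads there.

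The remaining BH3-only members were low or uneven. Bcl2l11 (chromosome 2, 128126038 to 128162547) ranged from 3.80 to 78.4 CPM, with the highest value in WT endosteal library B and the next, 34.9 CPM, in WT central library C. Bbc3 (chromosome 7, 16308393 to 16318205) had 0.244, 1.13, 9.09 and 0.0818 CPM in WT endosteal, 4.53, 0, 76.4 and 2.02 CPM in WT central, 11.97, 4.95, 0.463 and 9.38 CPM in Gfra2-/- endosteal and 1.44, 3.21 and 6.04 CPM in Gfra2-/- central libraries. Its 76.4 CPM in WT central library C, the shallowest of all, came from 57 counts, and its 0 in library B allows up to 0.933 CPM, the level of 3 counts. Bmf (chromosome 2, 118528757 to 118549687) was the one member that passed no filter on low counts. It had 8 counts in WT endosteal library C, 16 in Gfra2-/- endosteal library D, 13, 5 and 4 in Gfra2-/- central libraries A to C, and 0 in the other 10 libraries. Read 1 library at a time, the 0 counts of WT central libraries A to D allow up to 2.72, 0.933, 4.02 and 1.01 CPM. The levels of the Gfra2-/- central libraries, 0.473 to 0.852 CPM, lay under each of these limits. The highest level measured in any library, 1.402 CPM, lay above those of libraries B and D only. Whether Bmf differs between WT central HSCs and the other groups was not tested with the filter on low counts, and its fold changes without that filter are not given here. These limits cover counting error only, as PCR copies were not told apart.

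**Figure D1:**
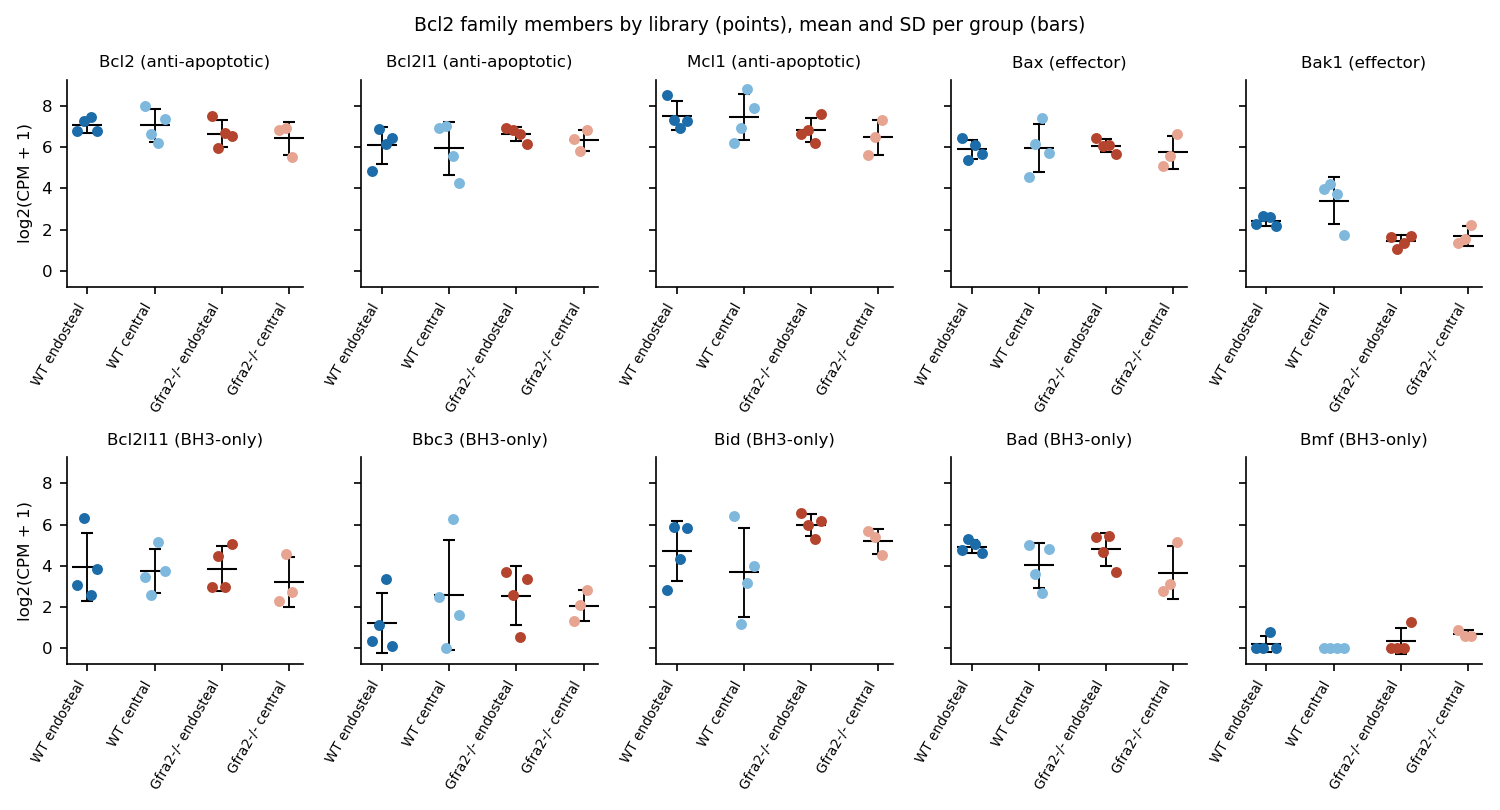
Level of each of the 10 members as log2(CPM + 1), with 1 point per library, the group mean (line) and 1 SD (bars) in the 4 groups. Bak1 is the member whose endosteal groups do not overlap (1.11 to 2.19 CPM in Gfra2-/- against 3.52 to 5.33 CPM in WT), and Bmf is at or near 0 throughout.

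Comparisons between groups used edgeR's quasi-likelihood test on the counts, with p-values adjusted over all genes tested (Benjamini-Hochberg) and a threshold of 10% FDR. They asked whether the family differs between the compartments and between the genotypes. Bmf did not pass the filter on low counts in any comparison, and Bbc3 did not pass it among WT HSCs. This left 8 members in that comparison and 9 in the others. None of them passed the threshold in any of the 7 comparisons by this test. With these settings and all libraries of a comparison, log2 fold changes given for single members exceed their SE unless said to lie within it.

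Between endosteal and central WT HSCs, the anti-apoptotic members differed least. Their log2 fold changes ran from -0.15 to -0.06, against SEs of 0.45 to 0.67. The 8 members tested had values between -1.39 and 0.73, 3 above and 5 below 0, and their median was -0.10 where that of all genes was 0.03. The 1 value beyond its SE was that of Bak1, -1.39 (SE 0.98, edgeR adjusted p = 0.760), with group means of 4.46 ± 0.886 CPM (SD, n = 4) in endosteal and 11.7 ± 6.62 CPM (SD, n = 4) in central HSCs. Of all 11181 genes tested 0 passed (0%), with 882 at an unadjusted p under 0.05. DESeq2, run without this filter, passed 606 of the 22106 genes with a count. No member had groups that did not overlap, where 6.44% of all genes did.

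In libraries labelled Gfra2-/-, 8 of 9 members had higher fitted values in endosteal than in central HSCs, and the median log2 fold change was 0.27 where that of all genes was 0.03. The anti-apoptotic members had values from 0.22 to 0.27, all within their SE. The 4 BH3-only members tested had values from 0.64 to 0.91, of which Bid, at 0.81 (SE 0.50, edgeR adjusted p = 0.999), and Bad, at 0.91 (SE 0.87, edgeR adjusted p = 0.999), exceeded their SE, though with spike-in size factors Bad lay at -0.17 relative to the median of all genes. With the Gfra2-/- central libraries A, B and C left out in turn, Bad stood at 0.51, 0.58 and 2.17, and without library C Bid stood at 0.53. Bid had means of 66.1 ± 22.7 CPM (SD, n = 4) and 37.8 ± 14.6 CPM (SD, n = 3). No gene out of 13860 passed the threshold (0%), and 664 had an unadjusted p under 0.05. DESeq2 passed 395 of the 23215 genes with a count. All 9 members had overlapping groups, where 7.29% of all genes did not overlap.

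Between the genotypes in endosteal HSCs, Mcl1 and Bak1 were the members with the smallest p-values, both with lower fitted values in libraries labelled Gfra2-/-. For Mcl1 the log2 fold change was -0.76 (SE 0.43, unadjusted p = 0.108, adjusted p = 0.776, edgeR), and -0.30 without WT endosteal library A. For Bak1 it was -1.35 (SE 0.79, unadjusted p = 0.119, adjusted p = 0.790, edgeR), with means of 1.74 ± 0.528 CPM (SD, n = 4) against 4.46 ± 0.886 CPM (SD, n = 4). The exact two-sided permutation test on the 8 log2 levels of Bak1 gave p = 0.0286, the smallest that 4 against 4 libraries allow, as 1 of 35 such tests of members. DESeq2 placed Bak1 past the threshold, at -1.36 with an adjusted p of 0.0895. Bak1 was the 1 of 9 members whose groups did not overlap, where 6.24% of all genes had such groups. Bid had a value of 0.92 (SE 0.68, edgeR adjusted p = 0.839), or 0.56 without WT endosteal library A, and the median of the 9 members was -0.0019 where that of all genes was 0.03. Of 12970 genes 0 passed (0%) and 868 had an unadjusted p under 0.05. DESeq2 passed 534 of the 23471 genes with a count.

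In central HSCs, 7 of 9 members had lower fitted values in libraries labelled Gfra2-/- than in WT, with a median of -0.56 where that of all genes was 0.03. Mcl1 had a log2 fold change of -1.18 (SE 0.63, unadjusted p = 0.0885, adjusted p = 0.645, edgeR), Bcl2 of -0.70 (SE 0.56, adjusted p = 0.801, edgeR) and Bak1 of -2.30 (SE 1.27, unadjusted p = 0.0962, adjusted p = 0.653, edgeR). Without WT central library C the value of Mcl1 was -0.59, and that of Bcl2 was -0.30 without WT central library A and -0.39 without Gfra2-/- central library C. Bbc3 had -2.52 (SE 1.81, adjusted p = 0.750, edgeR), which rested on WT central library C, and without that library its value was 0.75. Here 6 of 11772 genes passed, 0.051% of all genes tested, and 1028 had an unadjusted p under 0.05. DESeq2 passed 725 of the 21759 genes with a count. No member had groups apart, where 12.3% of all genes did.

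**Figure D2:**
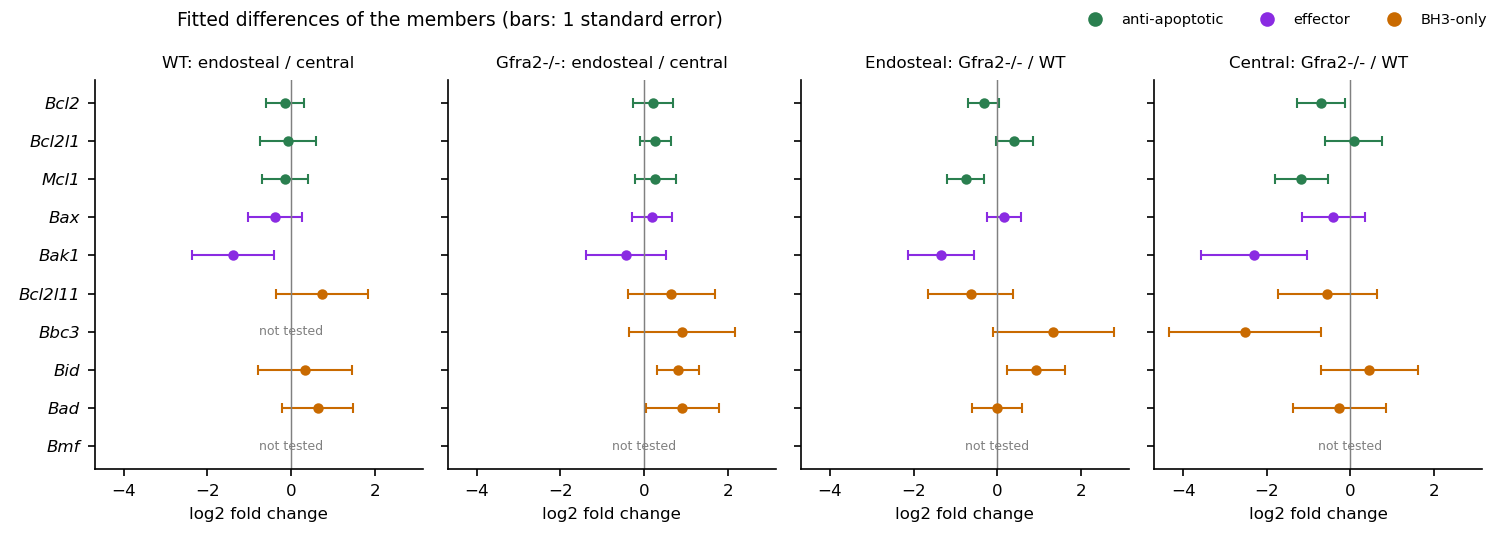
Log2 fold change of each member in the 4 comparisons of 2 groups (points; bars are 1 SE), coloured by role, from edgeR. All bars of the anti-apoptotic members cross 0 between compartments, and Mcl1 and Bak1 lie below 0 in both comparisons of the genotypes (-0.76 and -1.35 in endosteal, -1.18 and -2.30 in central HSCs), none of them past the 10% FDR.

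Averaged over both compartments in 1 fit of all 15 libraries, Mcl1 and Bak1 again had the lowest unadjusted p-values of the family. Mcl1 had a log2 fold change of -0.96 in libraries labelled Gfra2-/- against WT (SE 0.40, unadjusted p = 0.0284, adjusted p = 0.277, edgeR) and Bak1 of -1.82 (SE 0.79, unadjusted p = 0.0343, adjusted p = 0.297, edgeR). Bcl2 stood at -0.50 (SE 0.34), or -0.28 without WT central library A and -0.30 without Gfra2-/- central library C. Bid stood at 0.71 (SE 0.67), or 1.59 without WT central library A. These 2 of 9 members with an unadjusted p under 0.05 compare with 14.5% of the 15416 genes tested, and 0 of 9 members compare with 0.824% of genes past the threshold, which 127 genes passed. With DESeq2, 1461 of the 25361 genes with a count passed, and Bak1 was among them at -1.87 with an adjusted p of 0.00119. This fit uses the same libraries as the 2 comparisons within compartments, so it is no further evidence of their direction.

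Several measures moved with these 2 genes. The level of Bak1 was lower in deeper libraries. Its log2(CPM + 1) had r = -0.742 with the log2 number of reads on genes over 15 libraries, where Mcl1 had r = -0.430 and Bid r = 0.498. These are descriptions over libraries that share their groups, since the WT central libraries were the shallowest. When every library was thinned to 826487 reads, Bak1 no longer passed the filter on low counts and Mcl1 had a value of -1.03 over both compartments. Without the libraries under 1500000 reads on genes, the values over both compartments were -0.80 for Mcl1 and -1.70 for Bak1. Among the 11 libraries with a spike-in share above 0.5% they were -1.40 and -2.33. The 4 libraries below that share held 1 library of each group: their Mcl1 level was 155 CPM in WT and 194 CPM in Gfra2-/- endosteal HSCs, and 243 CPM in WT and 159.9 CPM in Gfra2-/- central HSCs. Their Bak1 level was 3.52 CPM in WT and 2.19 CPM in Gfra2-/- endosteal HSCs, and 2.36 CPM in WT and 3.72 CPM in Gfra2-/- central HSCs, so for each gene 1 of the 2 compartments ran the other way round. Without the Gfra2-/- endosteal libraries B and D, whose Gfra2 counts go against the label, the values were -1.17 for Mcl1 and -1.75 for Bak1. With spike-in size factors, taken relative to the median of all genes, Mcl1 stood at -0.05, -1.01 and -0.59 in endosteal HSCs, central HSCs and over both, and Bak1 at -1.02, -0.82 and -0.99. That median itself moved to -0.28, 1.75 and 0.80 in the same order. The B cell and erythroid markers reached their highest sums in Gfra2-/- endosteal libraries, and the myeloid markers in a WT central library (2614 CPM). The part of these markers in the values above was not tested.

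**Figure D3:**
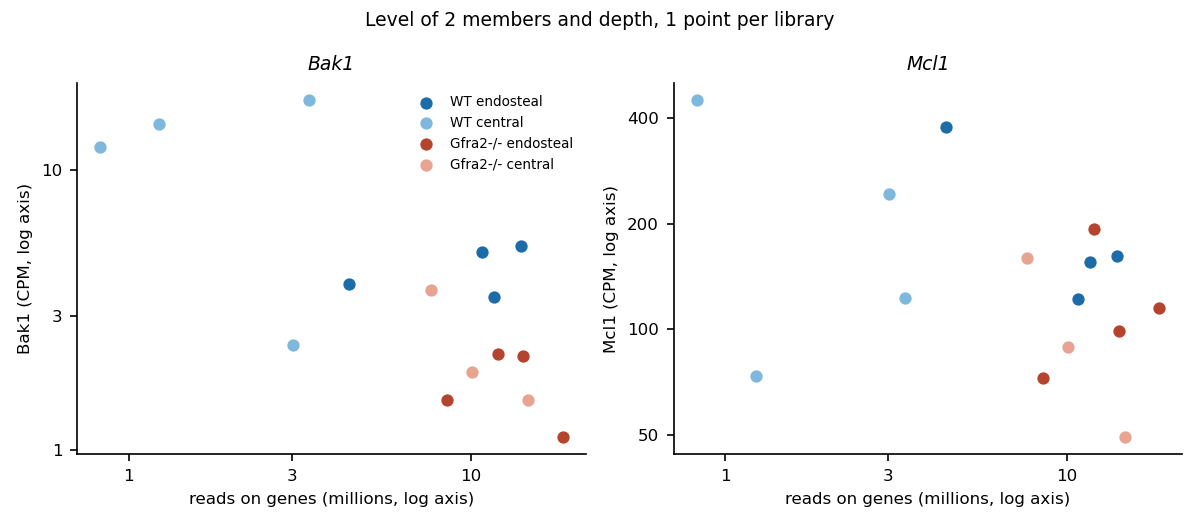
Level of Bak1 (left) and Mcl1 (right) in CPM against the number of reads on genes, both on log axes, with 1 point per library coloured by group. The 4 shallow WT central libraries include the 3 highest Bak1 values (12.1 to 17.7 CPM), and the Mcl1 values of the groups overlap.

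The compartments averaged over both genotypes gave 2 members beyond their SE. Bak1 had a log2 fold change of -0.91 (SE 0.76, adjusted p = 0.718, edgeR) in endosteal against central HSCs, and Bad of 0.79 (SE 0.59, adjusted p = 0.670, edgeR), which turned to -0.13 relative to the median of all genes with spike-in size factors and was 1.46 without Gfra2-/- central library C. The anti-apoptotic members stood at 0.05 for Bcl2, 0.08 for Mcl1 and 0.11 for Bcl2l1, each within its SE. No member passed the threshold, which 8 of 15416 genes or 0.0519% did, with 1660 at an unadjusted p under 0.05. DESeq2 passed 722 of the 25361 genes with a count. Whether the genotype difference depended on the compartment was tested as an interaction, which no member and 0 of 15416 genes passed (0%). In that test 1074 genes had an unadjusted p under 0.05, and DESeq2 passed 243 of the 25361 genes with a count. The smallest interaction p among the members was that of Bbc3, 0.147 by edgeR, and 8 of the 9 values lay within their SE.

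The make-up of the family per length varied between libraries, and most but not all of its ranges overlapped between groups. Anti-apoptotic members gave 52.8 ± 6.89% (SD, n = 15) of the summed CPM per kb of the 10 genes, effectors 28.7 ± 7.36% (SD, n = 15) and BH3-only members 18.5 ± 7.23% (SD, n = 15). By group the anti-apoptotic share was 57.1 ± 5.95% (SD, n = 4) in WT endosteal, 56.5 ± 6.31% (SD, n = 4) in WT central, 46.6 ± 6.16% (SD, n = 4) in Gfra2-/- endosteal and 50.3 ± 3.56% (SD, n = 3) in Gfra2-/- central HSCs, with ranges that overlapped, 50.8 to 65.2% in WT endosteal against 41.8 to 55.3% in Gfra2-/- endosteal libraries. Mcl1 alone gave 55.4 ± 18.2% (SD, n = 15) of the anti-apoptotic level, from 28.2% in WT central library A, where Bcl2 led, to 87.8% in WT central library C. Bcl2l1 led in Gfra2-/- endosteal library C and Gfra2-/- central library A, at 40.3% and 40.7%. Bax gave 92.0% or more of the effector level in 13 of 15 libraries, and its lowest share, 70.5%, was in WT central library A. Its share in Gfra2-/- endosteal libraries, 97.2 to 98.9%, lay above all values in WT endosteal (92.0 to 97.1%) and WT central libraries (70.5 to 97.1%). Gfra2-/- central libraries, at 97.12 to 97.61%, also lay above WT endosteal libraries but overlapped WT central libraries. As Bak1 is the only other effector here, these shares restate the low level of Bak1, which rests on 7 to 80 counts per library. The levels of Bax itself overlapped between these groups. The BH3-only share did not overlap between Gfra2-/- endosteal (22.6 to 27.1%) and Gfra2-/- central libraries (14.2 to 21.1%). The ratio of anti-apoptotic to effector level ran from 1.18 to 3.73 over the 15 libraries and was above 1 in each. No test was run on these shares, and how often shares of other genes do not overlap between groups was not measured.

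**Figure D4:**
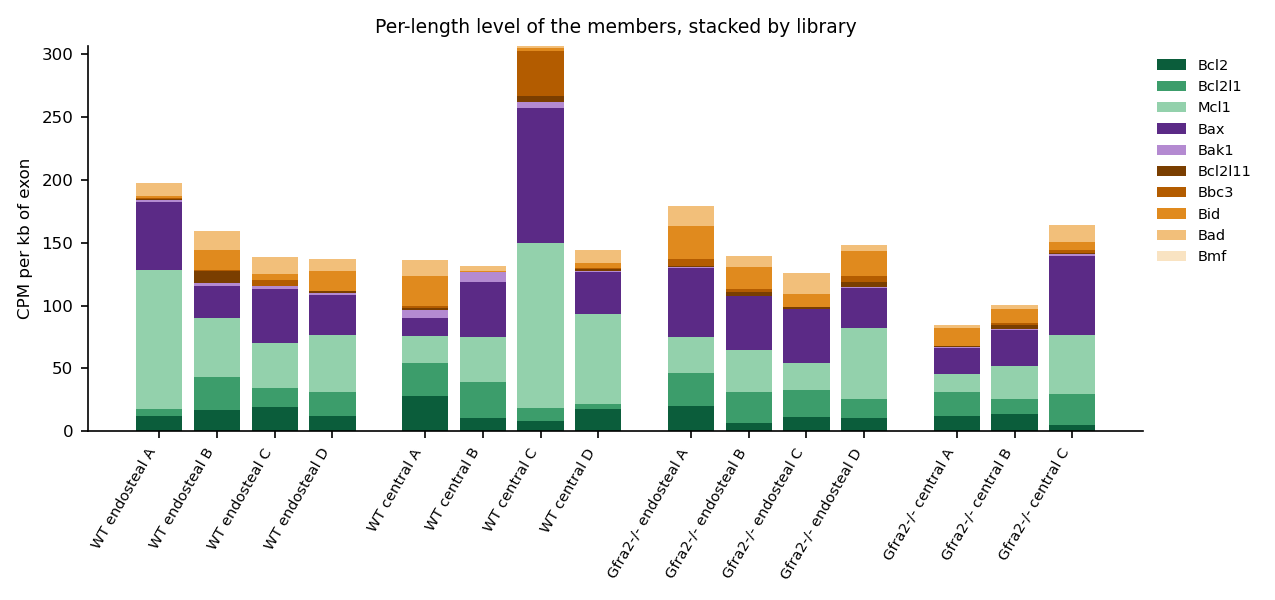
CPM per kb of exon of the 10 members, stacked for each of the 15 libraries, with anti-apoptotic members in green, effectors in purple and BH3-only members in brown to orange. Totals ran from 84.8 CPM per kb in Gfra2-/- central library A to 307 CPM per kb in WT central library C, and Mcl1 and Bax formed the largest segments in most libraries.

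Pairs of members ran in both directions across libraries. Over the 36 pairs of the 9 members past the filter, Pearson's r of log2(CPM + 1) across the 15 libraries ran from -0.61 for Bcl2l1 with Mcl1 to 0.62 for Mcl1 with Bax, with a median of -0.01, and 18 pairs lay above 0. In a search over 15416 genes, those most like Mcl1 were the processed pseudogene Gm5777 (r = 0.88), Rbm8a, which encodes a core protein of the exon junction complex (r = 0.86), and the cap-binding protein gene Eif4e3 (r = 0.84). Those most like Bcl2 were Cavin2, a caveola component (r = 0.79), Blcap (r = 0.79) and the processed pseudogene Gm6987 (r = 0.79), and those most like Bax were the corepressor Rcor3 (r = 0.90), the co-chaperone Stip1 (r = 0.83) and Mms22l, a DNA repair gene (r = 0.83). All libraries share their depth and group differences in these values, which are descriptions over 15 libraries, and the counts of pseudogenes can hold reads of near-identical genes.

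Of the 81 other apoptosis genes in 5 lists, compiled from general knowledge, 66 to 70 were tested in each comparison. In the 4 comparisons of 2 groups none of them passed the threshold by edgeR. The numbers at an unadjusted p under 0.05 were 5 of 66 between the WT compartments, where 7.89% of all genes had such a p, and 4 of 69 between the Gfra2-/- compartments, where 4.79% did. Between the genotypes they were 3 of 69 in endosteal HSCs (6.69% of all genes) and 9 of 67 in central HSCs (8.73% of all genes).

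Of the 15 genes of the list of apoptosome components and caspases, which act downstream of the pores, 11 of 14 tested had higher fitted values in WT endosteal than in WT central HSCs, and the median log2 fold change was 1.09 where that of all genes was 0.03. In that comparison Casp9, Diablo and Htra2, chosen after their values were seen, had groups that did not overlap, where 6.44% of all genes did. In libraries labelled Gfra2-/- 10 of 15 had higher values in endosteal HSCs, and Casp9, the initiator caspase of the apoptosome, had the smallest p of the list, with a log2 fold change of 4.36 (SE 1.12, adjusted p = 0.896, edgeR) and means of 31.3 ± 20.0 CPM (SD, n = 4) and 1.51 ± 1.56 CPM (SD, n = 3). Between the genotypes the list had 7 higher and 8 lower values in endosteal HSCs, where Casp8, the caspase of death receptors, had the smallest p at -0.63 (SE 0.33, adjusted p = 0.757, edgeR). In central HSCs it had 9 higher and 5 lower, with Htra2, a mitochondrial protease released with cytochrome c, at 4.49 (SE 1.33, adjusted p = 0.334, edgeR). Htra2 had 0 to 3 counts in each WT central library, which are the shallowest.

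Of the 7 genes listed as inhibitors of apoptosis, none passed in any comparison, and 6 of 7 had lower fitted values in endosteal than in central HSCs in WT and likewise in libraries labelled Gfra2-/-. In WT the smallest p belonged to the 1 that was higher, Birc6, a large ubiquitin-conjugating member, at 0.82 (SE 0.35, adjusted p = 0.594, edgeR), and in libraries labelled Gfra2-/- to Birc3 at -1.28 (SE 0.79, adjusted p = 0.999, edgeR). Between the genotypes it belonged to Birc2 in endosteal HSCs, at -0.59 (SE 0.47, adjusted p = 0.855, edgeR), and to Birc5, which also serves in cell division, in central HSCs, at -1.74 (SE 0.89, adjusted p = 0.616, edgeR).

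The death receptors and their adaptors, of which 7 to 9 of 10 were tested, passed nowhere. All 9 tested had higher fitted values in libraries labelled Gfra2-/- than in WT endosteal HSCs, with a median of 0.48 where that of all genes was 0.03, and 3 of these 9 exceeded their SE. Tnfrsf10b, the TRAIL receptor of the mouse, had the smallest p of the list there (0.0353 unadjusted and 0.737 adjusted, edgeR), with 0.463 to 17.3 CPM in Gfra2-/- endosteal and 0 to 0.999 CPM in WT endosteal libraries. In the other comparisons the genes with the smallest p were Cflar, which encodes the caspase 8 inhibitor c-FLIP, between WT compartments at -0.99 (SE 0.52, adjusted p = 0.654, edgeR), the TNF receptor Tnfrsf1a between Gfra2-/- compartments at 1.29 (SE 0.44, adjusted p = 0.930, edgeR) and the adaptor Tradd between genotypes in central HSCs at 1.57 (SE 0.81, adjusted p = 0.616, edgeR).

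The other Bcl2 family genes, of which 7 or 8 of 16 were tested, and the 33 partners and regulators of the members, of which 31 were tested, held no gene past the threshold. Bcl2l2, which encodes the anti-apoptotic BCL-W, had the smallest p of its list between genotypes, at -1.74 (SE 1.06, adjusted p = 0.797, edgeR) in endosteal and -2.61 (SE 1.42, adjusted p = 0.647, edgeR) in central HSCs, with 0 to 109 CPM in WT central and 5.27 to 11.2 CPM in Gfra2-/- central libraries. Between compartments it was Bcl2l13, at 1.68 (SE 1.15, adjusted p = 0.755, edgeR) in WT, where spike-in size factors put it at -0.051 relative to the median of all genes, and 1.41 (SE 0.64, adjusted p = 0.999, edgeR) in libraries labelled Gfra2-/-. Exons of Bcl2l13 overlap those of Bid on the opposite strand. Of the partners, the kinase gene Pim1, whose product phosphorylates BAD, had the smallest p between WT compartments, at -1.26 (SE 0.54, adjusted p = 0.594, edgeR), and Tmbim6 (BAX inhibitor 1) between Gfra2-/- compartments, at 0.41 (SE 0.19, adjusted p = 0.999, edgeR). Between genotypes it was Bcap31, which binds BCL2 proteins at the endoplasmic reticulum, in endosteal HSCs at 0.61 (SE 0.25, adjusted p = 0.737, edgeR), and Ywhaz, a 14-3-3 protein gene, in central HSCs at -0.94 (SE 0.27, adjusted p = 0.318, edgeR).

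**Figure D5:**
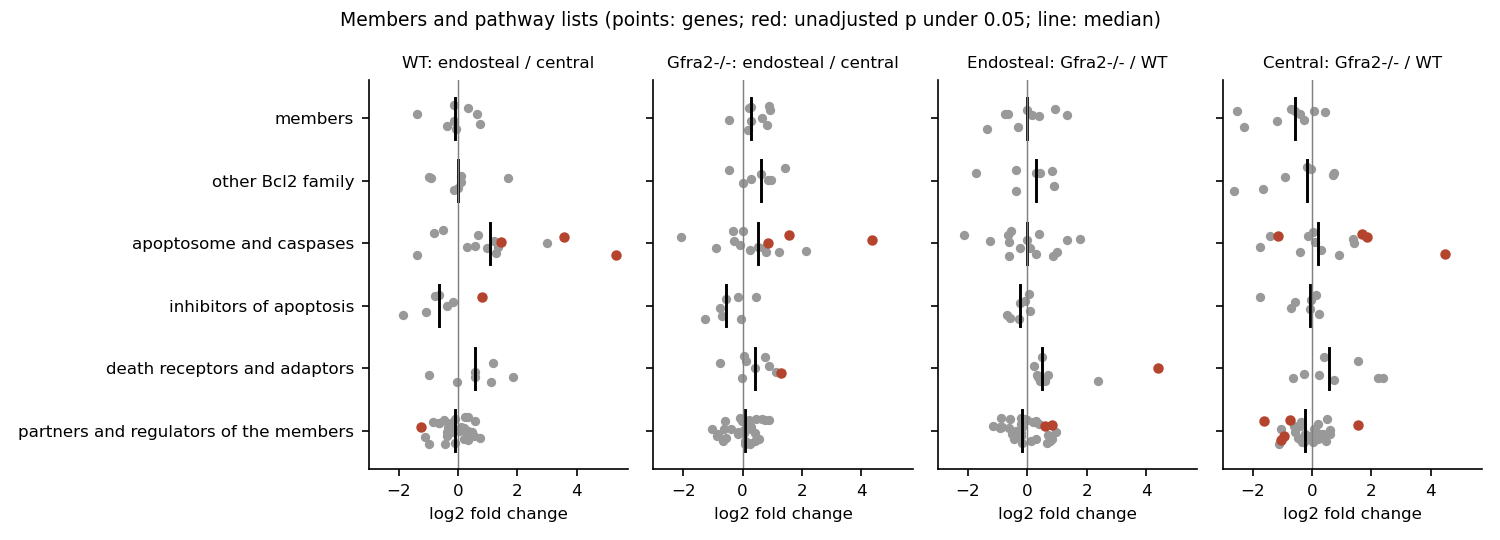
Log2 fold change of every tested gene of the members and of the 5 apoptosis lists in the 4 comparisons of 2 groups (points; vertical lines are list medians; red marks an unadjusted p under 0.05). No member is red, and the list of apoptosome components and caspases has its median at 1.09 between the WT compartments.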

How the data were processed

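Reads of single-end libraries, at most 50 bp long, were aligned by the authors with GSNAP to GRCm38 and counted on genes with HTSeq (0.5.3p3, from the submitters' processing notes) without regard to strand. The authors deposited these counts without normalization or filter, for 46078 genes, 92 spike-in RNAs and 5 summary categories, which held 54.6 to 80.3% of all counts and were left out of totals and tests. Of 16 labelled samples 15 libraries were used, and 1 column of per-sample values was not mapped to a sample and not used. Columns were assigned to groups by the study's own lists of libraries, without replicate numbers. Positions and exon lengths came from GENCODE M21 (GRCm38; 45229 genes matched), promoters from RefSeq.

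edgeR 4.0.16 (R 4.3.3) was run with filterByExpr, TMM, the quasi-likelihood test, Benjamini-Hochberg adjustment over all genes tested and an FDR of 10%, on the 2 groups compared. Averages over the other factor and the interaction (the endosteal minus central difference in Gfra2-/- minus that in WT) came from 1 fit of 15 libraries. SE is the absolute log2 fold change divided by the square root of F. CPM used TMM totals over 15 libraries, and a pseudocount of 1 on the log2 scale. A count of 0 was read as up to 3 counts. Alternatives were DESeq2 1.42.0 (with its own size factors and filtering), other size factors, thinned counts, no filter and a stricter FDR. Others were a yes-or-no term for libraries with a low spike-in share, library subsets, and each library left out. The scripts were tested on simulated data.

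The members, lists and alternatives were chosen with earlier results of these data known. Named were all 10 members, each list gene past the FDR, in each of the 4 comparisons of 2 groups the gene of each list with the smallest unadjusted p, and, for Bcl2, Mcl1 and Bax, the 3 genes with the highest Pearson r. Casp9, Diablo and Htra2 in the WT comparison, and Htra2 in the closing section, were chosen after their values were seen. Depth ranged from 826487 to 18550008 reads on genes. Results of some named list genes and markers are not reported here.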

Additional observations from a re-analysis of the deposited data

Results flagged for a closer look

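In 2 of the 29 groups of 4 libraries examined, 1 per member and group with any count, the highest library stood far from the other 3, whose values were all 0. Bmf had 8 counts (0.727 CPM) in WT endosteal library C and 0 in the other 3, a gap of 1 relative to the whole range. Bmf likewise had 16 counts (1.402 CPM) in Gfra2-/- endosteal library D and 0 in the other 3, again a gap of 1. With 3 of 4 libraries at 0 this gap is 1 whatever the count of the fourth, so the rate of about 1 in 20 groups that chance gives for continuous values does not apply here. Other single libraries that stood high in CPM were not flagged by this rule. Among them were Mcl1 (378 CPM) in WT endosteal library A and Bcl2l11 (78.4 CPM) in WT endosteal library B. In WT central HSCs they included Bid in library A (84.2 CPM) and Bbc3 in library C (76.4 CPM).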

How the results depend on the processing

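No paired analysis was possible because the deposited columns do not say which replicate of its group a library is. The count of members past 10% FDR was 0 in each of the 7 comparisons and under every alternative but DESeq2's test, which passed 1 member, Bak1, in endosteal HSCs between genotypes (-1.36) and over both compartments (-1.87). There DESeq2 passed 534 of 23471 and 1461 of 25361 genes, in this order. Of the 17 member values above their SE, 13 kept their direction in every alternative, with spike-in values taken relative to the median of all genes. With spike-in size factors, which move the median of all genes to 1.58 and -0.46 between the WT and Gfra2-/- compartments, -0.28 and 1.75 between the genotypes in endosteal and central HSCs, 0.60 and 0.80 for the averages and -2.18 for the interaction, Bad reversed relative to that median (-0.17 and -0.13), as did Bcl2l13 (-0.051). Among the 13, some centred values were smaller than an opposite shift of that median, so that without centring they lay above 0. These were Bak1 between WT compartments (-0.39) and between compartments over both (-0.53), and Mcl1 between genotypes over both (-0.59). Between central genotypes they were Mcl1 (-1.01), Bak1 (-0.82) and Bcl2 (-1.30). Bbc3 between genotypes in central HSCs reversed without the libraries under 1500000 reads (1.76) and without WT central library C (0.75; -3.14 to 0.75 with each library left out in turn). Its interaction value reversed without the libraries under 1500000 reads (-0.49). The cause was not tested.

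Counts of all genes past the threshold differed between alternatives. In the order WT compartments, Gfra2-/- compartments, endosteal genotypes, central genotypes, compartments and genotypes over both, and interaction, they were 0, 0, 0, 6, 8, 127 and 0, and with DESeq2's test 606, 395, 534, 725, 722, 1461 and 243, where the size factors were DESeq2's own and all 21759 to 25361 genes with a count entered. Spike-in size factors gave 15, 6, 2, 138, 460 and 193 from the second to the last, with 411 higher and 49 lower for the genotypes over both, where the TMM fit had 50 and 77. For the compartments over both, the split was 75 and 63 with spike-in and 4 and 11 with DESeq2 size factors (15 genes), against 3 and 5. No filter on low counts gave 58 between WT compartments, 134 between central genotypes and 46 for the compartments over both. Thinned counts gave 4, 19 and, for the genotypes over both, 216. A yes-or-no term for the 4 libraries with a spike-in share under 0.5% was also fitted. It gave 1 between WT compartments, 2 between central genotypes, 0 for the compartments and 83 for the genotypes over both. All 15 libraries in 1 fit gave 22 between WT compartments and 1 between endosteal genotypes. For central genotypes, compartments over both and genotypes over both, an FDR of 0.05 gave 0, 0 and 34, libraries over 1500000 reads 0, 0 and 20, and libraries with more spike-in reads 1, 0 and 6. Without the 2 libraries against their label, the last 2 were 0 and 6. Leaving out each library in turn gave 0 to 0 between Gfra2-/- compartments, between endosteal genotypes and for the interaction, 0 to 6 between WT compartments, 0 to 8 between central genotypes, and 0 to 20 and 11 to 187 for the compartments and genotypes over both.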

Other observations

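Htra2, chosen after its values were seen, had the smallest interaction p of the lists. It had 42.4, 67.4, 35.3 and 50.6 CPM in WT endosteal libraries, and 2.72, 0.933, 0 and 1.01 CPM, from 3, 3, 0 and 3 counts, in WT central libraries. In libraries labelled Gfra2-/- it had 25.6, 35.7, 39.8 and 31.2 CPM in endosteal and 19.7, 53.9 and 8.99 CPM in central HSCs. The compartments did not overlap in WT HSCs and overlapped in libraries labelled Gfra2-/-. The test of the interaction gave an unadjusted p of 0.000347 and an adjusted p of 0.523 by edgeR, so it did not pass over all genes. The WT central libraries were the shallowest, and 3 counts are the floor used here.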
